A study of Homo sapiens with 80 samples.

Results

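High and low purity cardiomyocyte differentiations of 3 human pluripotent stem cell lines were compared at day 4 or 5, by RNA sequencing. The comparison holds 6 libraries, out of 24 of the same experiment and 80 in the whole series, chosen by the cell line, purity class and day given in the labels. H9, a human embryonic stem cell line, gave a high purity library (passage 58) and a low purity library (passage 55), both of day 5. IMR90-4, an induced pluripotent stem cell line, gave a high purity library (passage 55) and a low purity library (passage 75), also of day 5. WTC11, another induced pluripotent line, gave a high purity library (passage 81) and a low purity library (passage 69), both of day 4. Per the labels, all 6 cultures were treated with CHIR99021, an inhibitor of GSK3 that activates WNT signalling, on day 0, in medium without insulin. IWP2, which blocks the secretion of WNT ligands, was added on day 2 and removed on day 4 in WTC11, and was added on day 3 in a mixture with conditioned medium and removed on day 5 in H9 and IMR90-4. The 6 libraries therefore match the removal of IWP2, with the calendar day differing between lines. High and low purity were assigned later, by flow cytometry for cardiac troponin T at the end of the protocol, and the percentages are not analysed here. Each line had 1 differentiation per class, so the line is the only replicate, and purity and passage cannot be told apart within a line. The higher passage was the high purity culture in H9 and WTC11 and the low purity culture in IMR90-4.

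Cells at this step have passed through a primitive streak-like state and are acquiring mesodermal identity. In the embryo and in culture, WNT signalling is needed to form mesoderm and must then decline before cardiac progenitors arise. Cardiac mesoderm then switches on a set of transcription factors, among them GATA4, TBX5, HAND2, MEF2C and NKX2-5, which act together on genes of the contractile apparatus. Neighbouring fates that share these precursors include paraxial mesoderm, endothelium, endoderm and stromal or epicardial mesoderm.

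Total reads in genes ranged from 25960651 in H9 high to 40357968 in WTC11 low, and the non-coding RNA RN7SK took 19.5% to 29.5% of the summed TPM, the deposited expression value scaled for gene length and depth, in the 6 libraries. WTC11 high stood apart in the mitochondrial ribosomal RNA entries, with 1033 TPM for RNR2 against 5.86 to 18.9 TPM in the other 5 libraries. H9 low stood apart in its whole profile. Correlations of log2 CPM, reads scaled to library size, were taken over the genes that averaged at least 5 CPM in the 6 libraries. H9 low correlated at r = 0.833 with H9 high of the same day and at r = 0.954 with its own day 7 library. The 2 classes correlated at r = 0.963 in IMR90-4 and r = 0.962 in WTC11. These correlations are across genes, which are not independent replicates. MYL4, an atrial myosin light chain, had 268 TPM in H9 low at day 3 and 8.44 TPM at day 5, against 24.3 and 32.0 TPM in H9 high. Whether H9 low stood at the same stage as H9 high was not tested, so for every H9 difference below, purity class and stage cannot be told apart. The markers fixed for mesoderm were present in all 6 libraries. PDGFRA, a growth factor receptor of early mesoderm, lay between 42.3 and 343 TPM, and HAND1, a transcription factor of lateral mesoderm, between 48.5 and 168 TPM. NANOG, a core pluripotency factor, was at most 5.39 TPM. It does not stand for the list of 9 pluripotency genes, which summed to between 319 TPM in H9 low and 1271 TPM in WTC11 low. In bulk RNA, fewer cells of a type and less RNA per cell cannot be told apart in any value below.

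The first question was which genes differed between the classes over all 3 lines. With the quasi-likelihood test of edgeR and the line as a block, 0 of 23848 genes (0%) passed an adjusted p of 0.05 with a log2 fold change of at least 1. At an unadjusted p under 0.05 the test gave 1798 genes, or 7.54%, of which 810 (3.4%) were higher and 988 (4.14%) lower in high purity. DESeq2 called 51 genes (0.214%) and limma-trend called 0. Named genes among the 51 of DESeq2 were TEK (adjusted p = 8.92e-06), ITGA6 (0.0003), DISP1 (0.000591), ANXA3 (0.00221), NETO1 (0.0023), COMTD1 (0.00431), PKHD1L1 (0.0296), GPC3 (0.0347) and ATP8A1 (0.0347). The smallest adjusted p in the edgeR test was 0.477. That test takes its spread from 24 libraries, which are 4 steps of the same 3 pairs of cultures treated as independent. DESeq2 and limma-trend were fitted to the same 24 libraries with the same terms, so their adjusted p-values carry the same limit. On the 6 libraries alone, with 2 residual degrees of freedom, edgeR had a smallest adjusted p of 0.949. A single gene in 3 pairs cannot go below p = 0.25 in a two-sided exact sign-flip test, or below p = 0.1 in an exact permutation test that ignores the pairing.

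The gene with the smallest edgeR p was MAP1B, a microtubule-associated protein of the neuronal cytoskeleton. Its TPM was 65.0 in H9 high against 21.0 in H9 low, 33.7 against 21.5 in IMR90-4, and 37.7 against 18.5 in WTC11. All 3 high purity libraries lay above all 3 low purity libraries, with an edgeR log2 difference of 0.98 ± 0.16 (SE, adjusted p = 0.477). This SE and the edgeR SEs below come from the fit over 24 libraries and do not measure the spread over the 3 pairs alone. DISP1, which releases Hedgehog ligands from producing cells, followed with a log2 difference of 1.07 ± 0.18 and the same adjusted p in edgeR. On the lower side, ITGA6, a laminin receptor subunit, had 2.93 TPM in H9 high against 4.60 in H9 low, 6.42 against 12.0 in IMR90-4, and 12.6 against 36.3 in WTC11. Each line had the lower value in the high purity library, but the lines themselves differed so much that the classes overlapped. The edgeR log2 difference of ITGA6 was -1.15 ± 0.19 (SE from the same fit, adjusted p = 0.477).

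The reach of each line's own difference was unequal. On log2 CPM with a prior count of 2, 5873 genes (24.6%) differed at least 2-fold between the classes in H9, 2788 (11.7%) in IMR90-4 and 3027 (12.7%) in WTC11. Higher and lower genes made up 13.8% and 10.8% in H9, 6.31% and 5.38% in IMR90-4, and 7.06% and 5.64% in WTC11. The SD of the log2 difference over genes was 1.22 in H9, 0.66 in IMR90-4 and 0.69 in WTC11. Since each line has 1 library per class, these within-line values carry no test.

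Genes that differed at least 2-fold in the same direction in all 3 lines were few. There were 93 higher in high purity, which is 0.39% of the genes tested, and 27 lower, which is 0.113%. Of the 93, 45 were protein coding and 28 averaged at least 5 CPM, and of the 27, 15 were protein coding and 5 averaged at least 5 CPM. With no minimum size, 3114 genes (13.1%) were higher and 3278 (13.7%) lower in all 3 lines. The nearest genes to the limit were LOC107986386, whose smallest log2 difference over the lines was 1.007, and PLXNA4, just outside at 0.996. On the lower side these were TMC1, just inside at 1.003 in size, and LOC105370617, just outside at 0.981. These genes were picked by their differences, which are given below as a description.

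**Figure D1:**
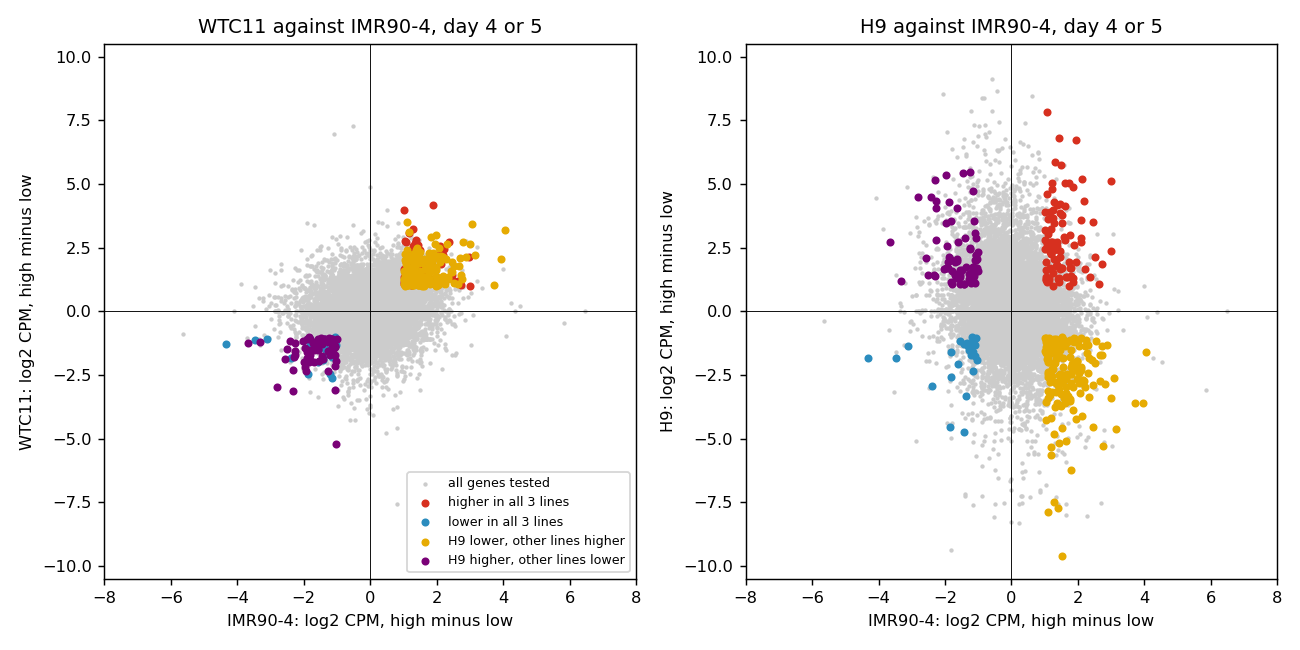
Each point is a gene, plotted by its log2 CPM difference (high minus low) in IMR90-4 on the x axis and in WTC11 (left) or H9 (right) on the y axis. Red and blue mark the 93 and 27 genes at least 2-fold apart in the same direction in all 3 lines, and yellow and purple mark the 166 and 73 genes in which H9 was opposed to both other lines. The H9 values spread wider (SD 1.22) than those of WTC11 (SD 0.69).

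Regulators and chaperones of heart muscle stood among the genes higher in all 3 lines. SMYD1, a muscle methyltransferase that acts with myosin chaperones (chr2:88067825-88113384), had 2.59 TPM in H9 high against 0.101 in H9 low, 10.1 against 2.12 in IMR90-4, and 1.52 against 0.281 in WTC11. The log2 CPM differences were 4.33, 2.18 and 2.20 in that order, but WTC11 high lay below IMR90-4 low, so the classes overlapped. UNC45B, the chaperone that folds muscle myosin, differed by 5.19, 2.13 and 1.86 on the log2 scale in H9, IMR90-4 and WTC11. MEF2C, a transcription factor of the cardiac programme (chr5:88717117-88904105), had 2.75, 6.98 and 2.66 TPM in the high purity libraries of H9, IMR90-4 and WTC11, against 0.401, 1.81 and 0.121 TPM in the low purity ones. Here every high purity library exceeded every low purity library. MYOCD, the coactivator of serum response factor in heart and smooth muscle (chr17:12665890-12768949), showed the same separation, with 7.29, 13.4 and 14.5 TPM against 0.329, 5.28 and 2.17 TPM. The edgeR log2 differences were 2.79 ± 1.25 (SE) for SMYD1, 2.83 ± 0.95 for MEF2C and 2.65 ± 1.23 for MYOCD, with adjusted p of 0.66, 0.534 and 0.667.

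The other named genes on the higher side had less in common in function. CBLN2, a secreted organiser of synapses, had 18.1 TPM in H9 high against 0.144 in H9 low, 71.5 against 17.6 in IMR90-4, and 7.59 against 1.47 in WTC11. NETO1, an auxiliary subunit of kainate receptors, differed by 5.04, 1.75 and 1.80 on the log2 CPM scale. DIO2, the enzyme that activates thyroid hormone, differed by 3.01, 1.76 and 1.29, and RCSD1, which binds the actin capping protein CapZ, by 2.12, 1.45 and 1.99. PLPPR4, a lipid phosphatase-related membrane protein of neurons, differed by 3.52, 2.45 and 1.43, and PKHD1L1, a large membrane protein, by 1.32, 1.86 and 1.84. In 4 of these 10 named genes (MEF2C, MYOCD, NETO1 and RCSD1) the TPM of all high purity libraries exceeded all low purity libraries, against 8.29% of all genes tested. Since the 10 were picked by their differences in the same 6 libraries, these shares are a description and not a test. Outside the naming rule, and chosen after their values were seen, the 93 also held RBM20 (1.22, 1.04 and 1.19) and RBM24 (3.49, 1.27 and 1.04), splicing factors of heart muscle, given as log2 CPM differences in H9, IMR90-4 and WTC11.

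Among the genes lower in all 3 lines were TEK and TAL1, the only members of the list of 10 endothelial and hemogenic genes that were lower in every line. TEK, the angiopoietin receptor of endothelial cells (chr9:27109225-27230174), had 0.218 TPM in H9 high against 5.09 in H9 low, 0.429 against 1.53 in IMR90-4, and 1.06 against 5.21 in WTC11. Every high purity library lay below every low purity library, and the edgeR log2 difference was -2.92 ± 0.53 (SE, adjusted p = 0.477). DESeq2 gave an adjusted p of 8.92e-06, also with repeated steps of the same cultures treated as independent. TAL1, a transcription factor of blood and endothelial precursors, rested on 0 reads in H9 high against 5 in H9 low, 9 against 210 in IMR90-4, and 3 against 14 in WTC11. Other members of the list went the other way in H9, where 6 of the 10 were higher in high purity, against 11691 of 23848 genes tested. Of these 6, 5 were at least 2-fold higher, against 13.8% of all genes in H9. In WTC11, 7 of the 10 were higher. GPC3, a heparan sulphate proteoglycan of the cell surface (chrX:133535745-133985594), had 22.0, 14.0 and 18.0 TPM in high purity H9, IMR90-4 and WTC11 against 201, 34.8 and 34.0 TPM in low purity. The low purity libraries were higher in each line, and H9 low was the highest by far.

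The remaining named genes on the lower side were smaller in difference. ANXA3, a phospholipid-binding annexin, differed by -2.09, -1.61 and -1.27 on the log2 CPM scale in H9, IMR90-4 and WTC11. CD9, a tetraspanin of the cell surface, differed by -1.74, -1.11 and -1.09, and RHPN2 by -1.03, -1.07 and -1.00. The other 5 named genes did not reach 2-fold in every line, because only 5 of the 27 averaged at least 5 CPM. These were COMTD1, ATP8A1, a phospholipid flippase, RASSF2, a Ras association domain protein, ITGA6 and HIST1H1D. HIST1H1D, a linker histone, had 449, 523 and 569 TPM in high purity H9, IMR90-4 and WTC11 against 853, 947 and 983 TPM in low purity, an edgeR log2 difference of -0.98 ± 0.17 (SE, adjusted p = 0.477). The TPM of all high purity libraries lay below all low purity libraries in 7 of the 10 named genes, against 1.73% of all genes tested. The 10 were picked by their differences in the same 6 libraries, so these shares are a description and not a test.

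**Figure D2:**
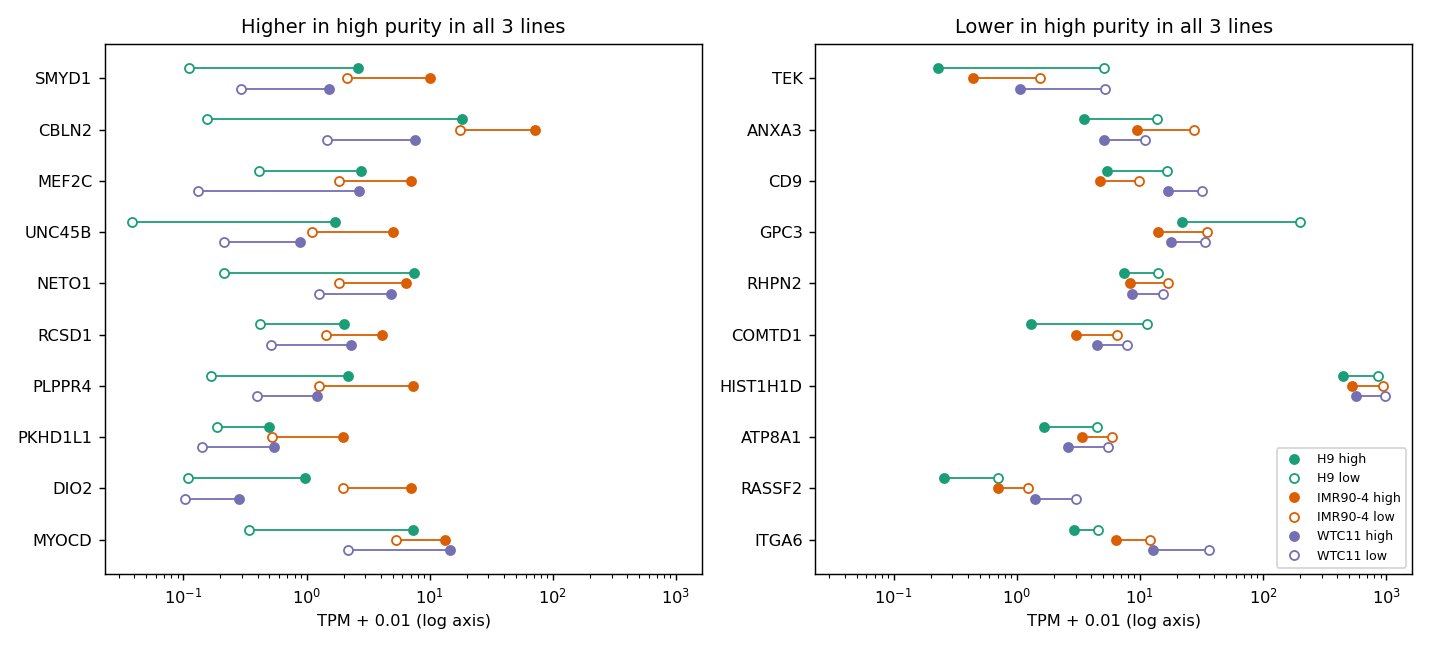
TPM (plus 0.01, log axis) of the 10 named genes higher (left) and the 10 named genes lower (right) in high purity in all 3 lines. Filled points are high purity and open points low purity libraries, 1 library each, joined within a line. MEF2C and MYOCD on the left and TEK on the right show no overlap between the classes, while SMYD1 overlaps because IMR90-4 low (2.12 TPM) lies above WTC11 high (1.52 TPM).

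The histone difference was not limited to HIST1H1D. Histone genes of the HIST1, HIST2 and HIST3 clusters supply nucleosomes during DNA replication. Of the 70 that passed the filter, 60 were lower in all 3 lines, against 13.7% of all genes. At 2-fold, 0 were lower in all 3 lines, against 0.113% of all genes. The median log2 CPM differences of the 70 were -1.41 in H9, -0.63 in IMR90-4 and -0.25 in WTC11. This set was chosen after HIST1H1D had been seen, and histone copies are near-identical, so reads can be divided among them. Of 12 cell cycle genes, 10 were lower in all 3 lines, against 13.7% of all genes, with medians of -0.39, -0.41 and -0.24. CCNB1, the cyclin of mitotic entry, had 69.0 TPM in H9 high against 92.3 in H9 low, 69.0 against 91.9 in IMR90-4, and 92.8 against 108 in WTC11. MKI67, the proliferation antigen, differed by -0.51 in H9 but by 0.18 and 0.31 in IMR90-4 and WTC11. Without composition scaling the WTC11 difference of CDK1, PCNA and TOP2A turned positive, and with the scaling of DESeq2 that of TOP2A did. Of 8 targets of p53, 6 were lower in all 3 lines, against 13.7% of all genes, with medians of -0.82, -0.40 and -0.27. CDKN1A, the p21 inhibitor of the cell cycle, had 8.16 TPM in H9 high against 15.7 in H9 low, 10.4 against 13.8 in IMR90-4, and 1.33 against 2.41 in WTC11.

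Contractile genes were split between agreement and opposition. MYH6, the alpha myosin heavy chain (chr14:23381987-23408273), had 0.376 TPM in H9 high against 0.0409 in H9 low, 1.45 against 0.310 in IMR90-4, and 1.17 against 0.215 in WTC11. Its levels were low, but all high purity libraries exceeded all low purity libraries, and the log2 CPM differences were 2.71, 2.11 and 2.22. MYL4, the atrial essential light chain, had 32.0 TPM in H9 high against 8.44 in H9 low, 183 against 69.2 in IMR90-4, and 75.2 against 27.9 in WTC11. Of the 13 contractile and excitation genes that passed the filter, 4 (MYH6, MYH7, MYL3 and MYL4) were higher in all 3 lines, against 13.1% of all genes, and 0 were lower. The list's median log2 CPM difference was 1.09 in H9, 0.94 in IMR90-4 and 0.61 in WTC11. In H9, 7 of its genes were at least 2-fold higher and 5 at least 2-fold lower, against 13.8% and 10.8% of all genes. MYH7 rested on 0 to 6 reads per library. TTN, the giant spring protein of the sarcomere, was broken across lines in the count table and is given in TPM only, with 14.3 TPM in H9 high against 3.11 in H9 low, 24.9 against 12.3 in IMR90-4, and 12.5 against 5.31 in WTC11.

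TNNT2, the cardiac troponin T by which purity was scored (chr1:201359014-201377680), went the other way in H9. It had 2.82 TPM in H9 high against 28.9 in H9 low, but 5.79 against 1.60 in IMR90-4 and 2.78 against 0.613 in WTC11. H9 low held the highest TNNT2 level of the 6 libraries, and the log2 CPM differences were -3.46, 1.76 and 1.93. TNNI1, the slow skeletal troponin I of early heart muscle, differed by -1.22, 1.04 and 1.58. MYL7, the atrial regulatory light chain, had 68.1 TPM in H9 high against 261 in H9 low, 113 against 58.1 in IMR90-4, and 52.9 against 23.1 in WTC11. RYR2, the calcium release channel of the sarcoplasmic reticulum, had 0.997 TPM in H9 high against 22.9 in H9 low, 3.62 against 0.493 in IMR90-4, and 1.89 against 1.16 in WTC11. TNNC1, which binds calcium in the troponin complex, was lower in high purity in IMR90-4 (34.0 against 91.1 TPM) and WTC11 (16.9 against 27.3 TPM) and higher in H9 (14.6 against 4.83 TPM).

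The promoters of MYH6, higher in all 3 lines, and TNNT2, opposed in H9, are shown because these 2 sarcomere genes parted in H9. The sequences are the 250 bases upstream of the RefSeq start, on GRCh38.p14, read 5′ to 3′ on the gene's own strand, which is the minus strand for both genes. Capitals mark the single match to one of 3 motif cores searched on both strands, the T-box core GGTGTGA, the TCF/LEF core CTTTGAT and the GATA core AGATAA, which do not overlap one another here.
MYH6 (chr14:23408274-23408523): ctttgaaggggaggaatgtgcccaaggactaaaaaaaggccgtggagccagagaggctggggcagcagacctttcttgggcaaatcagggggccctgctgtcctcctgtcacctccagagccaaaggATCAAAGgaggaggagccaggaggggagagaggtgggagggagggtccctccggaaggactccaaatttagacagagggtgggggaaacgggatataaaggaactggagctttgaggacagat
TNNT2 (chr1:201377681-201377930): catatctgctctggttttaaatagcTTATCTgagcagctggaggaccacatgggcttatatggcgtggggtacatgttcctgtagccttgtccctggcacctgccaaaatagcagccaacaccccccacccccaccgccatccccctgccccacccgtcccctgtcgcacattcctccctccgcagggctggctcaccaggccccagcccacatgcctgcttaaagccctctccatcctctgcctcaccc
The MYH6 window held a TCF/LEF core on the reverse strand, 123 bases before the start, and the TNNT2 window held a GATA core on the reverse strand, 225 bases before the start. Over 35116 promoters of the same length, 2.26% held the TCF/LEF core, 9.17% the GATA core and 2.76% the T-box core. A match of these letters is a description and does not show that a factor binds there.

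Cardiac transcription factors also held genes that were higher in all 3 lines and genes opposed in H9. Of 13 factors, 4 (ISL1, TBX20, MEF2C and SMYD1) were higher in all 3 lines and 0 were lower, against 13.1% and 13.7% of all genes, while the list's median log2 CPM difference was -0.13 in H9, 1.18 in IMR90-4 and 1.10 in WTC11. TBX5, a factor of the first heart field, had 1.56 TPM in H9 high against 4.39 in H9 low, 2.83 against 0.150 in IMR90-4, and 3.06 against 0.290 in WTC11. HAND2, a factor of the second heart field and right ventricle, had 15.7 TPM in H9 high against 35.9 in H9 low, 51.8 against 6.68 in IMR90-4, and 23.3 against 4.70 in WTC11. In both genes the high purity library was the lower of the pair in H9 and the higher in the other lines. GATA4 differed by -1.55, 1.18 and 0.88 and GATA5 by -1.06, 1.05 and 1.00 on the log2 CPM scale. ISL1, a factor of second heart field progenitors, had 21.2 TPM in H9 high against 0.360 in H9 low, 26.8 against 20.4 in IMR90-4, and 11.3 against 4.69 in WTC11. NKX2-5, an early factor of the heart tube, was higher in H9 (3.96 against 1.37 TPM) and WTC11 (4.35 against 0.706 TPM) and had close values in IMR90-4 (6.74 against 7.38 TPM).

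H9 was the line most often opposed to the others. Among genes at least 2-fold apart in every line, 166 (0.696% of genes tested) were lower in H9 and higher in both other lines, and 73 (0.306%) were higher in H9 and lower in both others. IMR90-4 was opposed in 18 genes (0.0755%) in which it was higher and 58 (0.243%) in which it was lower, and WTC11 in 30 (0.126%) and 22 (0.0923%). NTRK2, the receptor for brain-derived neurotrophic factor, differed by -4.64, 3.15 and 2.22 on the log2 CPM scale, and ZNF503, a zinc finger repressor, by -2.43, 2.29 and 2.07. In the other direction, IRX1, an Iroquois homeobox factor, had 19.8 TPM in H9 high against 0.876 in H9 low, 2.34 against 8.40 in IMR90-4, and 11.1 against 30.3 in WTC11. SOX21, a factor of neural and surface ectoderm, held 59 reads in H9 high and 1 in H9 low, 4 and 40 in IMR90-4, and 123 and 1376 in WTC11. LOC102724788 differed by 3.48, -1.97 and -2.18 on the log2 CPM scale.

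Refitting edgeR without H9 left 2 pairs at day 4 or 5 and called 129 genes, of which 80 (0.328% of 24365) were higher and 49 (0.201%) lower in high purity. Leaving out IMR90-4 or WTC11 instead gave 0 calls each. The spread in that fit comes from repeated steps of the same 2 pairs of cultures, treated as independent, and its adjusted p-values do not measure a spread over separate pairs alone. H9 took no part in that fit, so its own pair can be read against it. Of the 80 genes called higher, 25 were higher and 55 lower in H9, against 11691 and 11806 of 23848 genes tested. At least 2-fold lower there were 34 (42.5%), against 10.8% of all genes tested, and at least 2-fold higher were 14, against 13.8%. Of the 49 called lower, 38 were higher and 8 lower in H9. At least 2-fold higher there were 27 (55.1%), against 13.8% of all genes, and at least 2-fold lower were 5, against 10.8%. The median H9 difference was -0.66 for the 80 and 1.25 for the 49. TGFB2, a transforming growth factor ligand of endocardial and epicardial transitions, had the smallest p there, with a log2 difference of 1.67 (edgeR without H9, adjusted p = 0.00601) and a difference of -3.53 in H9. HAND2 (2.53, adjusted p = 0.0107 in edgeR without H9) and TBX5 (3.67, adjusted p = 0.0111) were among the 80, each with an H9 difference below 0. MYH6 (2.22, adjusted p = 0.0107 in edgeR without H9), UNC45B (2.06, adjusted p = 0.0499) and CBLN2 (2.08, adjusted p = 0.00601) were called higher there and were higher in H9 too.

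Entries of the miR-302/367 cluster, a set of microRNAs abundant in pluripotent cells, were among the genes opposed in H9. They were chosen after their values were seen. The mature 3p sequences from RefSeq are shown with the seed (bases 2 to 8) in capitals, since the seed divides the cluster into 2 groups.
hsa-miR-302a-3p: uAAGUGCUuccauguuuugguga
hsa-miR-302b-3p: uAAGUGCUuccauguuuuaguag
hsa-miR-302c-3p: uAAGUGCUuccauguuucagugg
hsa-miR-302d-3p: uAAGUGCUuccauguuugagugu
hsa-miR-367-3p: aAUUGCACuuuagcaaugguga
The 4 miR-302 members share the seed AAGUGCU, and miR-367 has AUUGCAC. All 5 hairpins lie within 112647874 to 112648557 on chromosome 4 (GRCh38.p14), on the minus strand inside LARP7, which lies on the plus strand. The counts are of the hairpin entries in total RNA libraries and do not measure mature microRNA, and whether strand was used in counting is not given in the sources used here, so these reads and those of LARP7 cannot be told apart.

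MIR302A had 253 reads in H9 high against 5 in H9 low, 416 against 1494 in IMR90-4, and 667 against 3716 in WTC11. MIR302C had 62 reads in H9 high against 0 in H9 low, 138 against 623 in IMR90-4, and 335 against 1631 in WTC11. The low purity library held more reads than the high purity library in IMR90-4 and WTC11 and almost none in H9. With the empty H9 low library set at 3 reads, the MIR302C level of H9 high was at least 23.2-fold higher. In edgeR without H9, MIR302A had a log2 difference of -1.98 (adjusted p = 0.0107), MIR302C -2.04 (adjusted p = 0.00939), MIR302D -2.21 (adjusted p = 0.0238) and MIR367 -2.24 (adjusted p = 0.0136), while MIR302B did not pass (-1.76, adjusted p = 0.0589). LARP7, which spans the hairpins on the opposite strand, encodes a protein of the 7SK complex. It had 2538 reads in H9 high against 1386 in H9 low, 3077 against 6736 in IMR90-4, and 4048 against 10726 in WTC11. LARP7 was also lower in that fit, by -1.09 on the log2 scale (edgeR without H9, adjusted p = 0.0328). With all 3 lines, none of the 6 entries passed, the lowest edgeR adjusted p being 0.796 for MIR367.

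**Figure D3:**
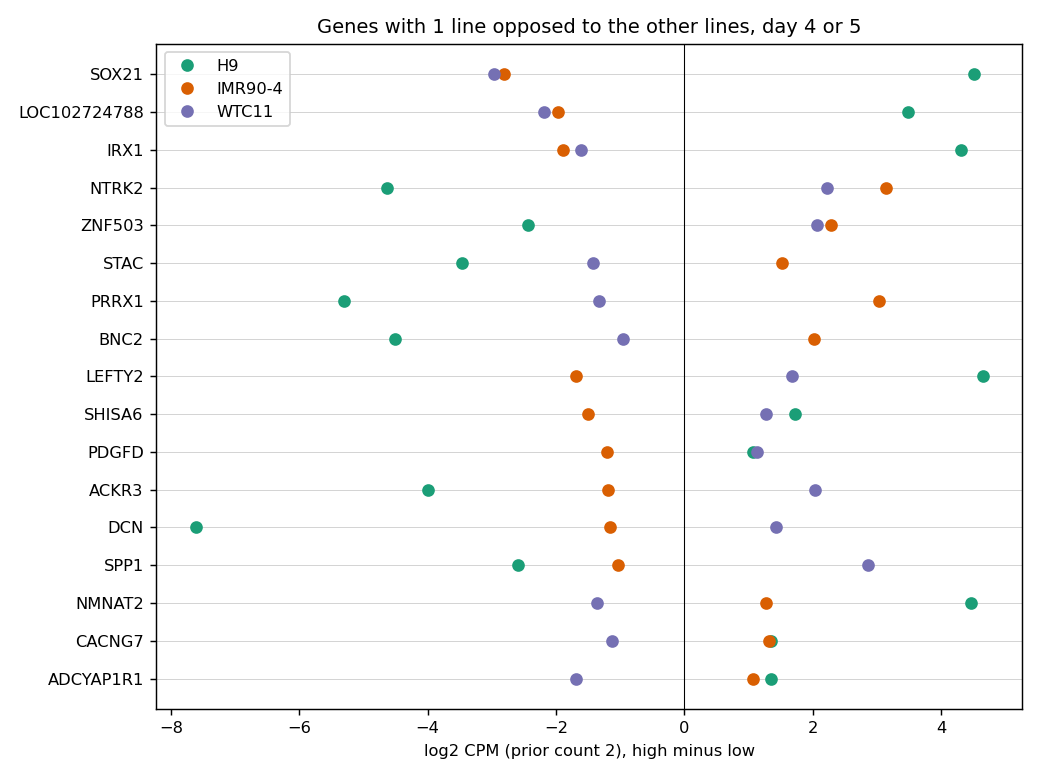
Log2 CPM difference (high minus low, prior count 2) of 17 named genes in which 1 line was opposed to the others, 1 point per line with no replicate. H9 is alone on its side in the top 5 genes, IMR90-4 in the next 6 and WTC11 in the last 6. BNC2 is included by the naming rule although WTC11 fell short of 2-fold (-0.95).

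IMR90-4 and WTC11 each had genes of their own in opposition. PRRX1, a homeobox factor of limb and craniofacial mesenchyme, had 3.94 TPM in IMR90-4 high against 0.441 in IMR90-4 low, 0.573 against 21.4 in H9, and 0.162 against 0.390 in WTC11. STAC, an adaptor of muscle calcium channels, differed by 1.52 in IMR90-4, -3.47 in H9 and -1.42 in WTC11, and BNC2, a zinc finger factor of mesenchyme, by 2.03, -4.51 and -0.95. LEFTY2, an antagonist of NODAL, was lower in high purity in IMR90-4 only, with 50 reads against 151, compared with 88 against 2 in H9 and 1514 against 661 in WTC11. SHISA6, an auxiliary subunit of glutamate receptors, differed by -1.50 in IMR90-4, 1.73 in H9 and 1.27 in WTC11, and PDGFD, a platelet-derived growth factor, by -1.20, 1.07 and 1.13. In WTC11, SPP1, the matrix protein osteopontin, had 13.6 TPM in high against 1.63 in low purity, while H9 had 2.43 against 13.6 and IMR90-4 0.832 against 1.68. ACKR3, a scavenging receptor for CXCL12, differed by 2.04 in WTC11, -3.99 in H9 and -1.19 in IMR90-4. DCN, a matrix proteoglycan, rested on 7 against 2 reads in WTC11 and 1 against 5 in IMR90-4, beside 6 against 1703 in H9. NMNAT2, an enzyme of NAD synthesis in axons, differed by -1.36 in WTC11, 4.47 in H9 and 1.27 in IMR90-4. CACNG7 and ADCYAP1R1 differed by -1.13 and -1.68 in WTC11 and by 1.08 to 1.35 in the other lines.

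Stromal and epicardial markers summed to their highest TPM in H9 low. Of the 8 stromal genes that passed the filter, 6 were at least 2-fold lower in H9 high and 1 at least 2-fold higher. Of the 8 epicardial genes, 5 were at least 2-fold lower in H9 high and 1 was higher at any size. At least 2-fold lower and higher in H9 were 10.8% and 13.8% of all genes. COL3A1, a fibrillar collagen (chr2:188974373-189012746), had 2.15 TPM in H9 high against 368 in H9 low, 1.65 against 0.232 in IMR90-4, and 2.35 against 1.15 in WTC11. LUM, a collagen-binding proteoglycan, had 1.21 TPM in H9 high against 153 in H9 low and was at most 0.988 TPM in the other 4 libraries. The 9 fibroblast and stromal markers summed to 690 TPM in H9 low and to 35.6 to 91.2 TPM in the other 5 libraries. WT1, the epicardial factor (chr11:32387775-32435539), had 0 reads in H9 high and 1543 in H9 low, at least a 459-fold difference with H9 high set at 3 reads, and at most 5 reads elsewhere. The 8 epicardial markers summed to 75.3 TPM in H9 low against 2.19 to 17.5 TPM in the other libraries. These marker levels moved with the H9 differences of TNNT2, TBX5 and HAND2, and their part in those differences was not tested. HOX and CDX genes followed the same order, with a list median of -3.90 in H9, 1.02 in IMR90-4 and 0.84 in WTC11. HOXB4 had 2.20 TPM in H9 high against 81.1 in H9 low, 7.91 against 1.08 in IMR90-4, and 16.2 against 5.97 in WTC11.

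Most mesendoderm, paraxial mesoderm and endoderm genes were higher in H9 high than in H9 low. They were 8 of 9 for the primitive streak list, 8 of 11 for paraxial mesoderm and 6 of 9 for endoderm. At any size, 11691 of the 23848 genes tested were higher in H9 high. At least 2-fold higher were 6, 8 and 6 members of these lists in that order, against 13.8% of all genes. EOMES, a T-box factor of the primitive streak, had 14.8 TPM in H9 high against 0.631 in H9 low, 8.68 against 19.3 in IMR90-4, and 24.3 against 22.9 in WTC11. FGF8, a growth factor of the streak and heart fields, had 36.6 TPM in H9 high against 0.146 in H9 low, 7.28 against 13.8 in IMR90-4, and 9.35 against 8.09 in WTC11. H9 low was the low library in both genes, and IMR90-4 high was the lower of its pair. The primitive streak list had medians of 1.84, -1.09 and 0.04, and paraxial and presomitic mesoderm had 2.06, -0.35 and 0.62, in H9, IMR90-4 and WTC11. FOXC1, a forkhead factor of paraxial and second heart field mesoderm, had 67.5 TPM in H9 high against 10.9 in H9 low, 30.5 against 43.7 in IMR90-4, and 42.4 against 19.7 in WTC11. CXCR4, a chemokine receptor used to mark definitive endoderm, had 14.6 TPM in H9 high against 2.49 in H9 low, 20.4 against 43.0 in IMR90-4, and 21.4 against 19.3 in WTC11. SOX17, an endoderm factor, had 17.5 TPM in IMR90-4 high against 51.8 in IMR90-4 low, 31.3 against 29.8 in WTC11, and 3.74 in H9 high against a single read in H9 low. The exceptions at least 2-fold lower in H9 high were MEOX1, a homeobox factor of somites (12 against 557 reads), MSGN1, a factor of presomitic mesoderm (0 against 30 reads), and APOA1, an apolipoprotein of liver and gut (28 against 193 reads), with AFP and TTR at 0 against 12 and 0 against 7 reads. Endoderm medians were 2.41 in H9, -0.89 in IMR90-4 and -0.01 in WTC11. The endoderm list summed to 67.1 TPM in IMR90-4 high and 142 TPM in IMR90-4 low.

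Lists of other cell types differed between the induced lines as well. In IMR90-4, 0 of 10 endothelial and hemogenic genes were higher in high purity. At least 2-fold lower there were 6 of the 10, against 5.38% of all genes in IMR90-4. The list median was -1.79 in IMR90-4, 1.05 in H9 and 0.14 in WTC11. LMO2, a partner of TAL1, had 422 reads in IMR90-4 high against 709 in IMR90-4 low, 594 against 0 in H9, and 124 against 212 in WTC11. In WTC11, neuroectoderm and pluripotency genes were higher in low purity, with list medians of -1.29 and -1.14. SOX2, a factor of pluripotent and neural cells (chr3:181711925-181714436), had 24.2 TPM in WTC11 high against 102 in WTC11 low, 0.881 against 1.58 in IMR90-4, and 1.52 against 0.355 in H9. SOX1, a marker of neural ectoderm, had 507 reads in WTC11 low and 0 in WTC11 high, at least a 120-fold difference with the empty library set at 3 reads, and at most 2 reads elsewhere. ZIC2, a zinc finger factor of the neural plate, had 46.8 TPM in WTC11 low against 13.0 in WTC11 high.

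Signalling lists were less clear. Of 14 BMP ligands, targets and inhibitors, 4 were higher in all 3 lines and 0 lower, against 13.1% and 13.7% of all genes, with medians of 0.68, 0.14 and 0.15 in H9, IMR90-4 and WTC11. BMP5, a ligand of the heart field region, was opposed in H9, with 5.56 TPM in H9 high against 34.0 in H9 low, 14.9 against 3.11 in IMR90-4, and 11.2 against 3.78 in WTC11. Of 10 feedback targets of WNT, 2 were higher and 1 lower in all 3 lines, against the same 13.1% and 13.7%, with medians of 0.24, 0.16 and 0.27. AXIN2, a common readout of WNT activity, had 9.73 TPM in H9 high against 7.70 in H9 low, 5.74 against 4.27 in IMR90-4, and 6.15 against 6.81 in WTC11. LGR5, a receptor for R-spondins, was higher in all 3 lines, with log2 CPM differences of 1.55, 2.13 and 0.25. FGF10, a second heart field ligand, had 66.7 TPM in H9 high against 6.66 in H9 low, 73.1 against 40.4 in IMR90-4, and 23.3 against 6.77 in WTC11. ALDH1A2, which makes retinoic acid, differed by 2.84, 0.50 and 3.34. Their lists were mixed. Of 9 FGF genes, 2 were higher and 1 lower in all 3 lines, with medians of 1.52, -0.21 and 0.205. Of 9 retinoic acid genes, 3 were higher and 1 lower in all 3 lines, with medians of 1.33, -0.305 and 0.143. The shares of all genes were the same 13.1% and 13.7%. In IMR90-4, only 2 of the 9 FGF genes and 4 of the 9 retinoic acid genes were higher in high purity.

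Metabolic lists divided the lines in 2 ways. Hypoxia and glycolysis genes had a median of 1.49 in H9 and of -1.01 and -0.66 in IMR90-4 and WTC11. BNIP3, a mitochondrial target of hypoxia signalling, had 296 TPM in H9 high against 27.1 in H9 low, 95.6 against 223 in IMR90-4, and 109 against 144 in WTC11. LDHA, the lactate dehydrogenase of glycolysis, had 351 TPM in H9 high against 64.4 in H9 low, 143 against 340 in IMR90-4, and 217 against 256 in WTC11. For both genes H9 high was the highest library. Metallothioneins, which bind zinc and copper, had medians of 0.78 in H9, 0.74 in IMR90-4 and -1.33 in WTC11. MT1X had 32.0 TPM in H9 high against 5.62 in H9 low, 20.5 against 7.00 in IMR90-4, and 3.82 against 19.7 in WTC11. The cholesterol synthesis list stayed near 0, with medians of -0.30, -0.32 and 0.03.

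**Figure D4:**
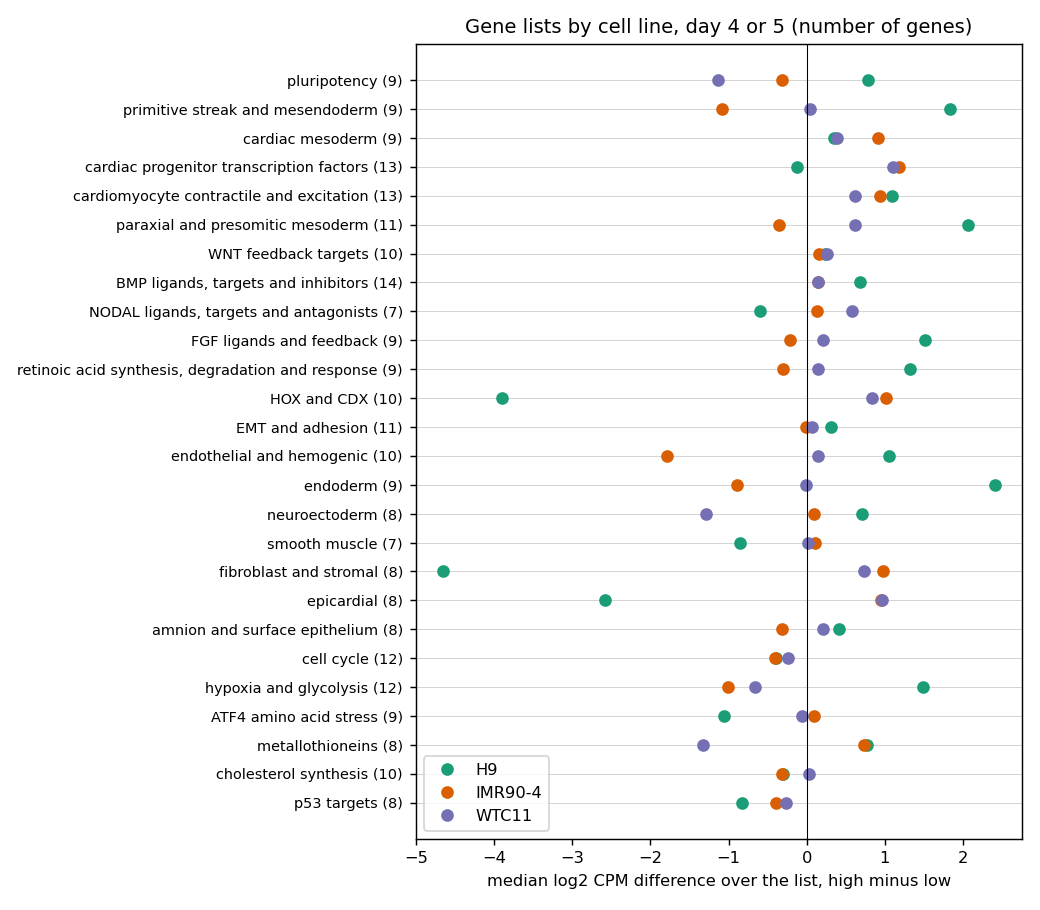
Median log2 CPM difference (high minus low) over each of 26 gene lists, 1 point per line, with the number of genes that passed the filter after each name. The HOX, fibroblast and epicardial lists have H9 far to the left (-3.90, -4.65 and -2.59), while the cell cycle and p53 lists lie below 0 in all 3 lines.

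The same differentiations one step earlier and one step later place these values in time. Of the 93 genes higher in all 3 lines, 55 (59.1%) were also higher in all 3 lines at day 6 or 7, against 16.4% of all genes, and 11 (11.8%) at day 2 or 3, against 14.6%. At day 2 or 3 another 20 of the 93 were lower in all 3 lines. Of the 27 lower genes, 10 (37.0%) were lower in all 3 lines at day 6 or 7, against 15.7%, and 5 (18.5%) at day 2 or 3, against 14.4%. The libraries of neighbouring steps come from the same differentiations and are not independent of the day 4 or 5 values. SMYD1 reached 98.3 TPM in H9 high at day 7 and 0.0137 TPM in H9 low, while both IMR90-4 libraries had 103 and 105 TPM and WTC11 had 89.7 in high and 38.8 in low purity. TNNT2, which was opposed in H9 at day 5, was higher in high purity in all 3 lines at day 6 or 7, with 211 TPM against 46.3 in H9, 397 against 255 in IMR90-4, and 333 against 123 in WTC11. WT1 remained high in H9 low, at 39.5 TPM on day 7.

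**Figure D5:**
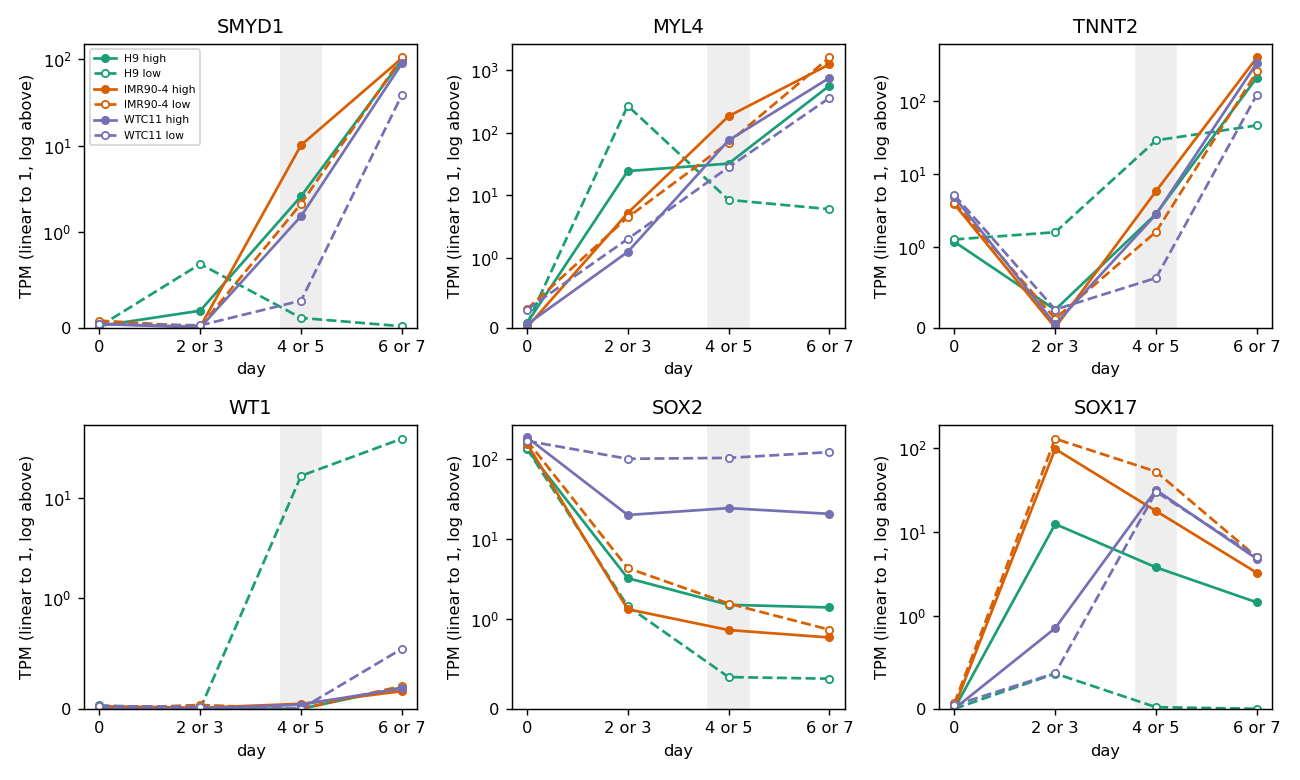
TPM (linear up to 1, log above) of 6 genes over the 4 steps of the RNA-only experiment, with the day on the x axis, colours for lines, solid lines and filled points for high purity, and dashed lines and open points for low purity. The grey band marks day 4 or 5. TNNT2 in H9 low is above all other libraries at that step (28.9 TPM) and lowest at day 6 or 7 (46.3 TPM), and WT1 is high in H9 low only.

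The WTC11 day 4 wells of the series' other experiment, from poly(A) libraries of 1 high purity (passage 52) and 1 low purity (passage 69) differentiation, went the other way for these muscle genes. TNNT2 was 15.2 ± 4.63 TPM (SD, n = 4 wells) in high and 489 ± 27.4 TPM (SD, n = 4 wells) in low purity, and SMYD1 4.19 ± 1.41 against 62.9 ± 2.34 TPM. The low purity culture of both experiments has the same passage label, with TNNT2 at 0.613 TPM in the total RNA library. For that experiment, count and TPM columns of the same name passed a check for the same reads in 0 of 56 cases. The check used each gene's ratio of counts to TPM in the RNA-only experiment and tried no other pairing of columns. It therefore cannot tell wrong column names from TPM values computed in another way. Whether the column names are right was not tested, and no test was made between these wells.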

How the data were processed

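Total RNA was sequenced from 24 libraries of the RNA-only experiment, with the Takara SMARTer stranded kit per the labels' protocols. The authors deposited raw read counts per gene and TPM values. STAR 2.5.3a, featureCounts 2.0.3 and hg38 are named in the submitters' processing notes; the annotation, strand setting and TPM formula are not given in the sources used here. In all 24 cases the count and TPM columns of a name matched in reads. The 6 genes of 36 broken lines, TTN among them, were left out of the counts, leaving 43382 genes. Another 56 columns of the multi-omic counts were not used.

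After filterByExpr, the counts of 23848 genes were fitted with edgeR 4.0.16 (TMM, quasi-likelihood) in R 4.3.3 over all 24 libraries, with 12 line and step means, 4 high minus low terms and 8 residual degrees of freedom, and adjusted by Benjamini-Hochberg. The line is the pairing, from the labels. Differences within a line used log2 CPM with a prior count of 2. Before use, the test was run on simulated counts drawn independently for each library. That run does not cover repeated steps of the same cultures. Alternatives were other scalings, filters, prior counts, limits, DESeq2 1.42.0, limma 3.58.1, TPM with a pseudocount of 1, the 6 libraries alone, no block, and leaving out each line. Gene positions are from RefSeq on GRCh38.p14.

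The members and all 26 gene lists (259 genes, 251 of which passed the filter) were chosen with earlier results of these data known. Named genes were, at 5 CPM or more on average and protein coding where typed, the 10 per direction with the largest smallest difference over the lines, the 3 per line and direction with that line opposed, the 3 per direction with the smallest edgeR p, and list members. A gene that the rule names is not reported here.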

Additional observations from a re-analysis of the deposited data

Results flagged for a closer look

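Named genes and members of the gene lists are given here where the 2 classes differed at least 2-fold in every line and 1 line moved opposite to the others. With 1 library per class in each line, the difference between lines was not tested, and the values are log2 CPM differences, high minus low, in the opposed line. In H9 the values below 0 were those of HOX genes (HOXB1 -4.20, HOXB3 -3.60 and HOXB4 -5.30), cardiac genes (TBX5 -1.61, HAND2 -1.32, GATA5 -1.05, TNNT2 -3.46 and TNNI1 -1.22), epicardial genes (WT1 -9.60, TCF21 -1.93 and BNC1 -3.24) and NTRK2 -4.64, ZNF503 -2.43, RSPO3 -2.62, MEOX1 -5.18 and BMP5 -2.74. The WT1 value rests on a library with 0 reads and depends on the prior count. Its differences in IMR90-4 (1.53) and WTC11 (1.37) do so too, with 0.045 and 0.0376 TPM in high purity against 0 TPM in low purity. For WT1, only the high level in H9 low stands clear of the floor. In H9 the values above 0 were SOX21 4.51, IRX1 4.31, LOC102724788 3.48, ZFP42 1.97 and SLC2A1 1.56, and SOX21 had a single read in H9 low.

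In IMR90-4 the opposed genes were PRRX1 3.04, STAC 1.52, LEFTY2 -1.68, SHISA6 -1.50, PDGFD -1.20, LHX1 -1.09 and ERG -2.09. In WTC11 they were SPP1 2.86, ACKR3 2.04, DCN 1.42 and MSGN1 1.17 above 0, and NMNAT2 -1.36, CACNG7 -1.13, ADCYAP1R1 -1.68, MT1E -1.54, MT1F -1.62 and MT1X -2.47 below 0. LEFTY2, LHX1, ERG, DCN, MSGN1, MT1E and MT1F had a library with 3 reads or fewer in at least 1 line.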

How the results depend on the processing

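Calls by edgeR at day 4 or 5 stayed at 0 with the other scalings, filters, limma-trend and the 6 libraries alone with the replicate block; with no replicate block the count was also 0, and 723 genes in place of 1798 had an unadjusted p under 0.05. DESeq2 called 51, and leaving out 1 line gave 0 to 129, the highest without H9. Counts of shared genes depended on the limit and the treatment of low counts. Genes higher in all 3 lines went from 93 to 28 at 5 CPM, 59 with a prior count of 5, 15 on TPM, 5 at a log2 difference of 2, 3114 at any difference, and 268 to 427 with 1 line left out. Genes lower in all 3 lines went from 27 to 4 at 5 CPM, 72 and 11 with prior counts of 0.5 and 5, 0 on TPM, 0 at a difference of 2, 3278 at any difference, and 185 to 216 with 1 line left out. At 5 CPM the opposed counts were 21 (H9 higher), 67 (H9 lower), 2 and 5 (IMR90-4) and 4 and 3 (WTC11), and with a prior count of 5 they were 42, 106, 4, 26, 12 and 11. A prior count of 0.5 gave 140 for H9 higher, 78 for IMR90-4 higher, 71 for WTC11 higher and 49 for WTC11 lower. On TPM they were 13, 26, 0, 1, 0 and 1, and at a difference of 2 they were 1, 10, 0, 0, 0 and 0. Without the filter IMR90-4 was higher in 37. The fewer genes that reach a limit account for the lower counts at stricter limits; for the other settings the cause was not tested. The mean of the 3 line medians moved beyond 1 SD for contractile genes (0.88 to 0.16 at 5 CPM and 0.47 on TPM), WNT feedback targets (0.22 to 0.30 at 5 CPM), neuroectoderm (-0.16 to 0.91 at 5 CPM) and cell cycle (-0.35 to -0.22 on TPM). Scaling without composition factors moved the median of all genes in WTC11 by 0.09. Each line had 1 library per class, so no difference within a line could be tested.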
